A study of Mus musculus with 16 samples.

Results

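Wild-type embryonic fibroblasts were compared with kidney fibroblasts that carried a floxed Kindlin-2 gene, as 2 baselines of the same RNA-sequencing series. The members are the 2 libraries labelled MEFs wt and the 2 labelled MKFs Kindlin-2 floxed, 4 of 16 libraries in all. The floxed allele carries recombination sites around the part to be removed, and no deletion is labelled in these cells. The other genotypes, used for further levels and to see which calls held, were Actg1 K.O. and Actg1 full locus deletion embryonic fibroblasts, Kindlin-2 K.O. kidney cells and wild-type embryonic stem cells (ESCs), each in 2 libraries. The labels give no strain, age, passage or number of clones for either line, and they do not say whether the 2 libraries of a group came from separate cultures.

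The deposited gene tables of the embryonic and kidney cells were normalised apart, so each library was rescaled to CPM, here the value per 1000000 of its summed protein-coding values. A CPM value is not divided by gene length, so levels are compared between libraries for 1 gene and not between genes. The summed values were 21507900 and 21718732 in the embryonic libraries and 15922284 and 16324223 in the floxed kidney libraries, of which protein-coding genes took 78.2 to 83.1%. Mitochondrial ribosomal RNA took 10.7 and 12.6% of the embryonic totals and 16.4 and 17.0% of the kidney totals. Cell line, table, normalisation and culture all differed between the groups and cannot be told apart, so no test across the lines was made and no p-value is given. A gene was called at least 8-fold higher in a line when the lower of its 2 libraries, with 1 CPM added, was at least 8 times the higher library of the other line.

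Fibroblasts are the cells of connective tissue that make fibrillar collagen and other matrix, and they are usually recognised by collagen I, PDGF receptors and vimentin. Embryonic fibroblasts come from trunk and limb mesenchyme and keep transcription factors of that origin. In the kidney, fibroblasts lie between tubules, and the tubules themselves arise from lineages marked by the transcription factors PAX2 and PAX8.

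The labelled cell type was checked first against 10 defining fibroblast markers. In the embryonic libraries 7 of the 10 reached a mean of 1 CPM (Col1a1, Col1a2, Col3a1, Vim, Pdgfra, Pdgfrb and Ddr2), while Dcn, Thy1 and Fap stayed below it. In the floxed kidney libraries 3 of the 10 did (Col1a1, Vim and Ddr2), and Col3a1, Dcn, Thy1 and Fap had no row in that table. The summed level of the set was 9589 and 9671 CPM in the embryonic libraries and 2661 and 2649 in the kidney libraries, where Vim alone gave 2608 and 2599. Of 14 kidney epithelial markers, 9 reached 1 CPM in the floxed kidney cells (Cdh1, Cdh16, Epcam, Krt8, Krt18, Pax8, Lrp2, Cubn and Aqp1) and 4 in the embryonic cells (Krt7, Krt19, Cubn and Aqp1). At 10 CPM the counts were 5 in the kidney and 3 in the embryonic cells. Their summed level was 849 and 834 CPM in the kidney libraries and 519 and 491 in the embryonic libraries, where Aqp1 alone gave 481 and 454. Of 18 fibroblast and general mesenchymal markers, 9 reached 1 CPM in the kidney and 15 in the embryonic cells. Of 20 kidney stroma and mesangium genes, 9 did in the kidney and 13 in the embryonic cells. Collagen I and the PDGF receptors thus went against the fibroblast label of the kidney libraries, which are called floxed kidney cells here. In such bulk RNA, fewer cells of a type and less RNA per cell cannot be told apart.

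Few markers in the short sets for other cell types reached 10 CPM in either line. Smooth muscle genes are given further below. Of 6 blood and macrophage markers 0 reached 1 CPM in the embryonic libraries (summed 1.06 and 0.960) and 1 did in the kidney libraries (Csf1r; summed 10.2 and 10.6). Endothelial markers summed to 34.5 and 28.7 in the embryonic and to 57.1 and 48.5 in the kidney libraries, with Flt1 above 1 CPM in both lines. Of these 7 markers, 1 reached 10 CPM in each line. In the kidney cells it was Flt1, the only one above 1 CPM there. Neural markers summed to 11.4 and 12.8 against 2.88 and 2.66. Of 3 skeletal muscle markers, 1 had a row in the embryonic table, where it was listed at 0 in both libraries, and 0 had a row in the kidney table.

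Of 12587 protein-coding genes with a row in both tables, 212 were called at least 8-fold higher in embryonic fibroblasts (1.68%) and 238 at least 8-fold higher in floxed kidney cells (1.89%). These were 2.20% and 2.47% of the 9626 genes with the level that a call needs. The counts called in the gene lists below are to be read beside these shares, and a few calls do not give a list a direction. The median log2 ratio of embryonic over kidney was -0.13, and 76.0% of the genes lay within 2-fold of equality. Between the 2 libraries of a line the median absolute log2 difference was 0.0975 for the embryonic and 0.0825 for the kidney cells, and 0 genes differed 8-fold. Across genes the log2 levels correlated with r = 0.998 within each line and r = 0.874 between the lines, a description over genes that share a library. At the edge of the rule, Emilin2 had a gap of 8.10-fold inside it and Emp1 of 7.93-fold outside it in the embryonic direction, and Tuba1a 8.02-fold and Uchl1 7.97-fold in the kidney direction.

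**Figure D1:**
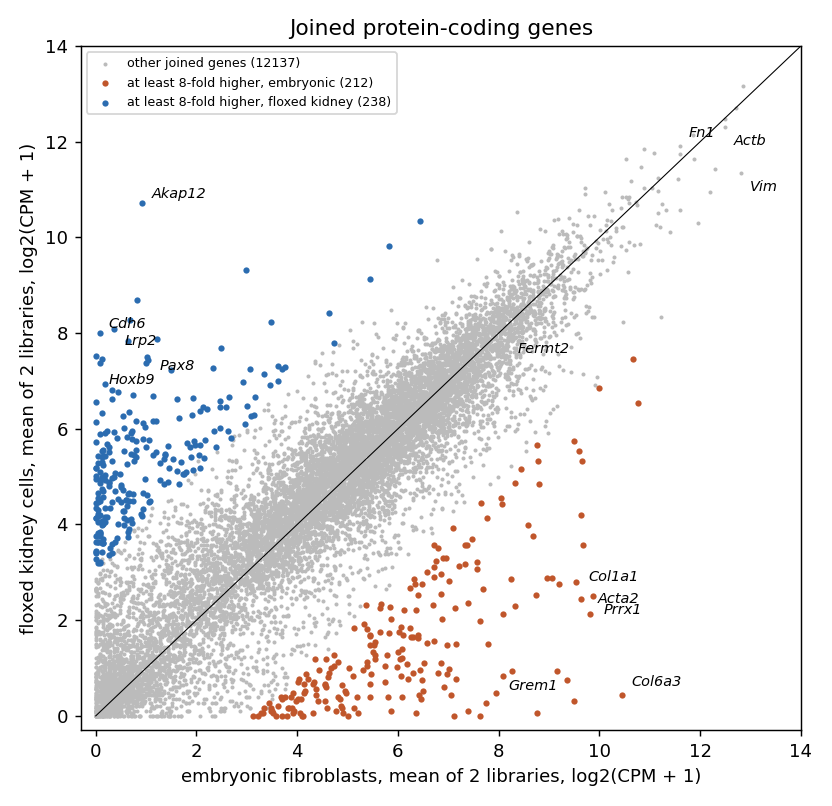
Mean level of each of 12587 joined protein-coding genes in embryonic fibroblasts (x axis) and floxed kidney cells (y axis), both as log2(CPM + 1), with the line of equality. The 212 genes called higher in embryonic fibroblasts lie at the lower right, with Col6a3 and Grem1 near 0 in the kidney cells, and the 238 called higher in the kidney cells at the upper left, with Akap12 farthest out.

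Fibrillar collagen genes were among those with the widest gaps. Col1a1 and Col1a2 encode the chains of collagen I. Col1a1 stood at 847 and 745 CPM in the embryonic libraries and at 3.93 and 5.01 in the kidney libraries, a 178-fold difference of means. Col1a2 stood at 592 and 541 against 1.20 and 0.627 (log2 ratio 8.21). Col11a1, a minor fibrillar chain, stood at 73.6 and 71.1 against 0.561 and 0.862. Of 9 joined fibrillar collagen genes these 3 were called higher in embryonic fibroblasts and 1, Col5a3, higher in kidney cells (3.58 and 3.22 against 86.9 and 86.6, 25.5-fold). Col3a1 (358 and 349.6) and Col5a2 (509 and 460.3) had values in the embryonic table and no row in the kidney table.

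Other collagen genes ranged from near equality to the widest gap measured. Col5a1 stood at 291 and 263 in the embryonic and 142 and 140.5 in the kidney libraries, below the 8-fold rule. Col6a1 stood at 270.4 and 259.8 against 393 and 381, whereas Col6a3, which encodes another chain of the same beaded-filament collagen, stood at 1486 and 1315 against 0.240 and 0.470. Col6a3 (chr1:90765923-90843971, minus strand, GRCm38) had the largest log2 ratio of any joined gene in the embryonic direction, 10.01. Serpinh1, the collagen chaperone, stood at 306 and 284 against 331 and 348, and P4ha1, a prolyl hydroxylase subunit, at 168 and 178 against 189 and 189. Fn1, which encodes fibronectin, stood at 3280.0 and 2912 against 3902 and 3831 (1.25-fold), and Sparc at 643 and 616 against 537 and 545. Among 13 other collagens, Col12a1 (17.0-fold), Col8a1 (40.3-fold) and Col6a3 were called higher in embryonic fibroblasts and Col7a1, the anchoring-fibril chain, higher in kidney cells (5.65 and 4.35 against 89.0 and 83.7).

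Basement membrane genes held calls in both directions. Of 20 joined genes, 4 were called higher in kidney cells and 1 in embryonic fibroblasts, beside 1.89% and 1.68% of all joined genes. The ratio was above 0 in 11 of the 20, with a median log2 ratio of 0.06, so the calls give the list no direction. Col4a3 and Col4a4 encode chains of the collagen IV network of the glomerulus and tubule. Col4a4 stood at 1.46 and 1.41 in the embryonic and 30.2 and 29.0 in the kidney libraries (20.6-fold), and Col4a3 at 0.728 and 0.452 against 22.8 and 25.5. Lama1, a laminin chain, stood at 0.392 and 0.169 against 61.5 and 58.5, and Agrn, which encodes the heparan sulfate proteoglycan agrin, at 25.4 and 22.2 against 355 and 328 (14.4-fold). Nid1, which encodes the linker nidogen 1, went the other way with 174 and 158 against 0.0801 and 0.0783.

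Elastic-fibre and matricellular genes gave more calls in embryonic fibroblasts than in kidney cells. Of 32 joined genes, 9 were called higher there and 2 in kidney cells, with a median log2 ratio of 0.83. Fbn1, the main microfibril gene, stood at 520.1 and 475 against 5.93 and 6.74 (78.5-fold). Ltbp2, a microfibril-associated TGF-beta binding protein gene, stood at 476 and 393 against 0.0801 and 0, and Fbln2, a fibulin, at 711 and 605 against 1.04 and 0.313. Thbs1, which encodes thrombospondin 1, was called with a smaller gap, 1713 and 1512 against 178 and 169.7 (9.29-fold). Loxl2, a lysyl oxidase that crosslinks collagen, was the largest exception, with 0.392 and 0.791 in the embryonic and 309 and 312 in the kidney libraries. Npnt, the nephronectin gene, was the other (2.13 and 1.69 against 43.0 and 37.8, 21.2-fold). Lox itself, at 300.1 and 294 in the embryonic libraries, had no row in the kidney table. Bgn, the biglycan gene, had the highest CPM level of the embryonic genes with no kidney row (2213 and 1996), and Smoc2 followed the same pattern (386 and 343). Of 14 joined proteoglycan genes only Aspn was called (42.0 and 49.6 against 1.28 and 1.57, 32.2-fold), while the list's median log2 ratio was 1.19.

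Genes of matrix turnover included members at both ends. Mmp10, the stromelysin 2 gene, stood at 36.4 and 35.2 in the embryonic libraries and at 0.0801 and 0 in the kidney libraries. Its relatives Mmp3 (1524 and 1524) and Mmp13 (975 and 969) had no row in the kidney table. The inhibitors Timp1 (188 and 189 against 8.41 and 8.23, 22.7-fold) and Timp3 (761 and 687 against 50.6 and 54.8, 13.7-fold) were called in the same direction as Mmp10. Adamts1, a secreted aggrecanase, was called higher in kidney cells, with 55.8 and 55.2 against 919 and 892 (16.3-fold), as was Adamts9 (0.168 and 0 against 11.0 and 11.4), whose log2 ratio turned to 0.49 over all 6 embryonic and 4 kidney libraries. Of 20 joined genes of this list, 3 were called one way and 2 the other. The promoter of Mmp10 is shown because this family is known for AP-1 control, and the motifs marked here and in Myl9 were chosen after values were seen. Its window runs from 250 bases before to 50 after the start in RefSeq (GRCm38.p6, chr9:7502092-7502391, plus strand). The capitals mark an AP-1 site (TGANTCA) 63 bases and a TATA box (TATAAA) 29 bases before the start.
Mmp10: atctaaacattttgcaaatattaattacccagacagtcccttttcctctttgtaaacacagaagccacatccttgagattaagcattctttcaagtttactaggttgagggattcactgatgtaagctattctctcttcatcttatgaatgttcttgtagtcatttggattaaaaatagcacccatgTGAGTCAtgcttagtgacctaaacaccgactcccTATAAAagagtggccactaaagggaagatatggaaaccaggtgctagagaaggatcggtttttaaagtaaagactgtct
Over 32851 RefSeq promoter windows of this length, 7.81% held the AP-1 letters and 13.6% the TATA box letters on either strand. A match is a description of the letters and not of binding.

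Several contractile genes of smooth muscle were near 0 in the kidney cells. Of 16 joined smooth muscle and pericyte genes, Acta2, Myl9 and Cnn1 were called higher in embryonic fibroblasts and 0 in kidney cells, with a median log2 ratio of 0.43. Acta2 (chr19:34241090-34255590, minus strand) encodes smooth muscle alpha-actin, the usual myofibroblast marker. It stood at 885 and 922 in the embryonic libraries and 3.45 and 3.29 in the kidney libraries, a 268-fold difference. Myl9, a regulatory myosin light chain gene, stood at 218 and 219 against 1.92 and 1.72 (119.8-fold), and Cnn1, the calponin 1 gene, at 28.7 and 28.4 against 0.481 and 0.627. Tpm2, a tropomyosin gene, stood at 189 and 204 against 3.13 and 2.82 (66.2-fold), and Fhl1, a LIM-domain gene, at 303 and 306 against 0.801 and 1.02. The summed level of 7 smooth muscle and pericyte markers was 921 and 958 against 7.77 and 7.83 CPM, and Acta2 alone gave 885 and 922 of it. Of the 7, 2 (Acta2 and Cnn1) reached 10 CPM in the embryonic libraries and 0 in the kidney libraries. Tagln, another usual marker, had a mean between 1 and 10 CPM in both lines. Among targets of the SRF and YAP regulators, Ankrd1 and Fos were called the other way. Ankrd1 stood at 7.11 and 7.68 against 153 and 148 (20.4-fold higher in kidney cells) and Fos at 4.20 and 3.95 against 62.3 and 59.5 (14.9-fold). Of the 24 joined SRF and YAP targets, 2 were called each way, and the median log2 ratio was 0.19. The promoter of Myl9 (GRCm38.p6, chr2:156775214-156775513, plus strand) is shown because smooth muscle genes are known for the CArG box, the SRF binding motif. One match lay 161 bases before the start and is in capitals, and 1.63% of all windows held the motif.
Myl9: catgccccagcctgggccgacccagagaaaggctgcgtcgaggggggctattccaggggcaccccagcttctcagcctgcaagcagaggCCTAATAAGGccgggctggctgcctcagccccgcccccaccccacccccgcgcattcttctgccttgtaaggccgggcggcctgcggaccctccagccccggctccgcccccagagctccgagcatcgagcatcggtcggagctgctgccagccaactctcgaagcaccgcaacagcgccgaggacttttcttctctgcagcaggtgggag

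Transcription factors of limb and trunk mesenchyme separated the lines in the same direction. Of 22 joined factors, 6 were called higher in embryonic fibroblasts and 1 in kidney cells, with a median log2 ratio of 1.42, the highest of the lists with 5 or more joined genes. Prrx1, a paired-type homeobox gene of limb and craniofacial mesenchyme, stood at 925 and 934 against 4.33 and 5.01 (199-fold). Twist1 stood at 83.2 and 83.0 against 5.37 and 4.23 (17.3-fold), and Prrx2 at 43.5 and 41.9 against 0.882 and 0.313. Lmx1b, a dorsal limb factor gene, stood at 57.8 and 52.0 against 0.321 and 0.313, and Tbx15 at 43.9 and 42.8 against 0.882 and 0.783. Pitx1, a hindlimb factor gene, stood at 8.12 and 8.53 and was listed at 0 in both kidney libraries. The mesenchymal repressors Zeb1 (186 and 189 against 128 and 129.9) and Zeb2 (207 and 214 against 138 and 142) lay within 2-fold of each other in the lines. Snai2 stood at 65.3 and 69.9 against 17.4 and 17.8 (3.84-fold), and Vim at 7065 and 7339 against 2608 and 2599 (2.77-fold). These values were below the 8-fold rule.

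**Figure D2:**
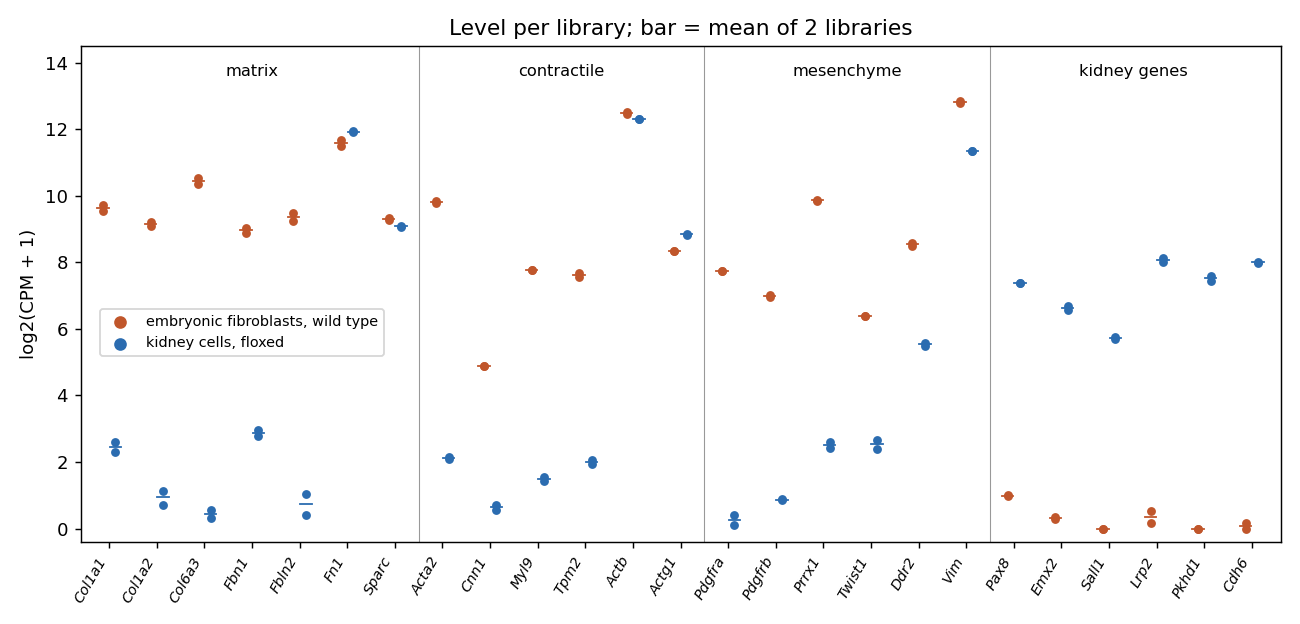
Levels per library as log2(CPM + 1), with points for the 2 embryonic (orange) and 2 floxed kidney (blue) libraries and bars for their means. Collagen I, contractile and mesenchyme genes such as Acta2 and Prrx1 are high in the embryonic libraries, Pax8, Lrp2 and Cdh6 in the kidney libraries, and Fn1, Sparc, Actb and Actg1 are close in both.

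Receptors and ligands followed the mesenchymal genes in part. The PDGF receptor genes Pdgfra (214 and 211 against 0.321 and 0.0783) and Pdgfrb (128 and 123 against 0.801 and 0.862) were called higher in embryonic fibroblasts. Their ligand gene Pdgfb was called the other way, at 3.36 and 1.98 against 49.7 and 46.1 (18.0-fold higher in kidney cells). The epidermal growth factor receptor genes showed the kidney direction too, with Egfr at 10.4 and 9.83 against 309.8 and 293 (29.8-fold) and Erbb3 at 0.0560 and 0.226 against 28.4 and 30.3. Ereg, which encodes the EGFR ligand epiregulin, was higher in embryonic fibroblasts (206 and 207 against 5.45 and 5.09, 39.1-fold). Fgf2 (108 and 99.2 against 1.68 and 2.27) and Fgf10 (95.0 and 94.1 against 1.20 and 2.51) were called there as well, and Bdnf stood at 190.4 and 186 against 6.65 and 8.15. Of the 32 joined growth factor and receptor genes, 6 were called higher in embryonic fibroblasts and 3 in kidney cells.

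In the TGF-beta and BMP pathway, antagonists were called in both directions. Grem1, which encodes the secreted BMP antagonist gremlin 1, stood at 724 and 707 in the embryonic libraries and 0.160 and 0.313 in the kidney libraries (log2 ratio 9.18). Fst, the follistatin gene, stood at 74.3 and 77.3 against 2.08 and 2.19 (35.5-fold), Bmp4 at 67.6 and 70.2 against 3.69 and 3.60 (18.9-fold), and the BMP target Id1 at 95.0 and 93.8 against 6.81 and 7.21 (13.5-fold). Tgfbr3, the betaglycan gene, stood at 183 and 169.9 against 12.1 and 11.8 (14.8-fold). The BMP antagonist gene Chrdl1 (0.0560 and 0.0565 against 7.69 and 8.54) and Inhbb, an activin subunit gene (0.392 and 0.452 against 19.2 and 23.2), were called higher in kidney cells. Of 30 joined genes, 5 were called higher in embryonic fibroblasts and 2 in kidney cells. Of 33 joined WNT and hedgehog genes, 1 was called higher in embryonic fibroblasts and 4 in kidney cells. Their median log2 ratio was 0.36 and 20 of the 33 ratios were above 0, so the calls give the list no direction. Wnt5a stood at 52.3 and 47.6 against 4.41 and 3.68 (12.3-fold higher in embryonic fibroblasts). Wnt7b, a WNT of the collecting duct, stood at 0.224 and 0.734 against 45.8 and 45.4, Wnt10a was listed at 0 in both embryonic libraries and at 21.6 and 19.8 in the kidney libraries, and the receptor gene Fzd6 stood at 0.560 and 0.791 against 103 and 105.

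Of 13 joined genes of the insulin-like growth factor system, 3 were called, all higher in embryonic fibroblasts, with a median log2 ratio of 1.36. They were Igf2r, Igf2bp1, an RNA-binding protein gene (163 and 156 against 10.5 and 11.1, 14.8-fold), and Igfbp4, a binding protein gene (17.2 and 16.4 against 0.401 and 0.470).

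Some inflammatory and guidance genes were called. Ptgs2, the inducible cyclooxygenase gene, stood at 827 and 811 against a kidney mean of 11.0 ± 1.35 (SD, n = 2) (74.5-fold), Cxcl12 at 126 and 114 against 0.321 and 0.705, and Il1rl1, an IL-33 receptor gene, at 1746 and 1709 against 92.6 and 92.1 (18.7-fold). Cxcl1, a neutrophil chemokine gene, was higher in kidney cells, at 7.44 and 8.47 against 101 and 101 (12.7-fold). Of 22 joined chemokine and cytokine genes, 5 were called higher in embryonic fibroblasts and 1 in kidney cells. Of 31 joined cadherin and cell adhesion genes, guidance genes among them, 6 were called higher in embryonic fibroblasts and 2 in kidney cells. The guidance ligand gene Slit2 stood at 834 and 763 against 17.6 and 17.2 (45.9-fold), and the gene of its receptor, Robo2, at 2.41 and 2.26 against 34.1 and 30.2 (13.8-fold higher in kidney cells). Over all 6 embryonic and 4 kidney libraries the log2 ratio of Robo2 turned to 0.33. Cdh11, the mesenchymal cadherin 11 gene, stood at 308 and 299.7 against 5.45 and 7.05 (48.6-fold). Cdh6, a cadherin gene of the developing nephron, stood at 0.112 and 0 against 256 and 252. Integrins gave 1 call among 16 joined genes, Itga1, which encodes a chain of a collagen receptor (14.4 and 10.7 against 155 and 157, 12.4-fold higher in kidney cells).

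Some genes of kidney development and tubule epithelium were called higher in the kidney cells. Pax8 stood at 1.01 and 0.960 CPM in the embryonic libraries and 164 and 167 in the kidney libraries. Emx2, a urogenital homeobox gene, stood at 0.224 and 0.282 against 93.8 and 102, and Sall1, a zinc-finger factor gene of nephron progenitors, was listed at 0 in both embryonic libraries and with a mean of 51.9 ± 1.56 (SD, n = 2) CPM in the kidney libraries. Lrp2, which encodes the endocytic receptor megalin, stood at 0.112 and 0.452 against 280.5 and 259. Pkhd1, the gene mutated in recessive polycystic kidney disease, was listed at 0 in both embryonic libraries and at 191 and 173 in the kidney libraries. These 5 genes were all called, and a call by itself leaves no overlap between the groups.

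Further kidney genes had a row in the kidney table only. Pax2 stood at 45.2 and 43.6 and Cdh16, the kidney-specific cadherin gene, at 121 and 123 CPM. The epithelial keratin gene Krt18 stood at 156 and 163 and Prom1 at 135 and 139.5. Lad1, F2rl1 and Peg3 completed the 5 genes of highest CPM level with no embryonic row, at 267 and 253, 177 and 186, and 282 and 280.1. Other epithelial genes were low in the floxed kidney cells. Epcam stood at 2.08 and 0.862, Cdh1, the E-cadherin gene, at 0.801 and 1.25, and Krt8 at 5.13 and 6.11, while Krt7 was listed at 0 in both libraries. Wt1 stood at 0.401 and 0.392 and Osr1 at 2.24 and 1.33 in the kidney libraries, and Six2 had no row there. Krt19 (9.52 and 11.4) was called higher in embryonic fibroblasts, against 0.0801 and 0, but its log2 ratio turned to -1.51 over all 6 embryonic and 4 kidney libraries. Aqp1 stood at 481 and 454 in the embryonic and 114 and 107 in the kidney libraries (4.23-fold), below the rule. Of 17 joined kidney and urogenital factors, 3 (Emx2, Pax8 and Sall1) were called higher in kidney cells and 1, Grem1, in embryonic fibroblasts, with a median log2 ratio of -0.48. Of 9 joined kidney epithelial markers, Lrp2 and Pax8 were called higher in kidney cells and Krt19 in embryonic fibroblasts, and the median was 0.55.

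Hox genes, whose clusters record position along the body axis, differed by cluster. All 7 joined HoxB genes were called higher in the floxed kidney cells, with a median log2 ratio of -5.01. Hoxb9 (chr11:96271457-96276595) stood at 0.0560 and 0.0565 in the embryonic and 165 and 167 in the kidney libraries, Hoxb6 at 0.112 and 0.169 against 61.9 and 57.3, and Hoxb7 was listed at 0 in both embryonic libraries and at 35.8 and 34.9 in the kidney libraries. Hoxb3, Hoxb4, Hoxb5 and Hoxb8 lay at 0 to 0.113 in the embryonic and 8.62 to 31.4 in the kidney libraries. Of 8 joined HoxC genes, Hoxc6, Hoxc9 and Hoxc10 were called in that direction, and Hoxc10 was listed at 0 in both embryonic libraries and at 95.3 and 92.6 in the kidney libraries. The largest value of any joined HoxC gene in an embryonic library was 0.168.

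HoxA gave 0 calls. Its 9 joined genes had a median log2 ratio of -0.42. Hoxa10 stood at 37.6 and 34.1 in the embryonic and 33.3 and 36.8 in the kidney libraries, so the groups overlapped, and Hoxa7 at 38.6 and 39.9 against 45.0 and 45.6. Its 5′ members Hoxa11 (44.8 and 40.6) and Hoxa13 (38.0 and 35.9) had a row in the embryonic table only. In HoxD, Hoxd13, the last gene of the cluster and a factor of the distal limb, stood at 139 and 134 in the embryonic libraries and was listed at 0 in both kidney libraries. The other joined HoxD genes were below 1 CPM in all 4 libraries.

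**Figure D3:**
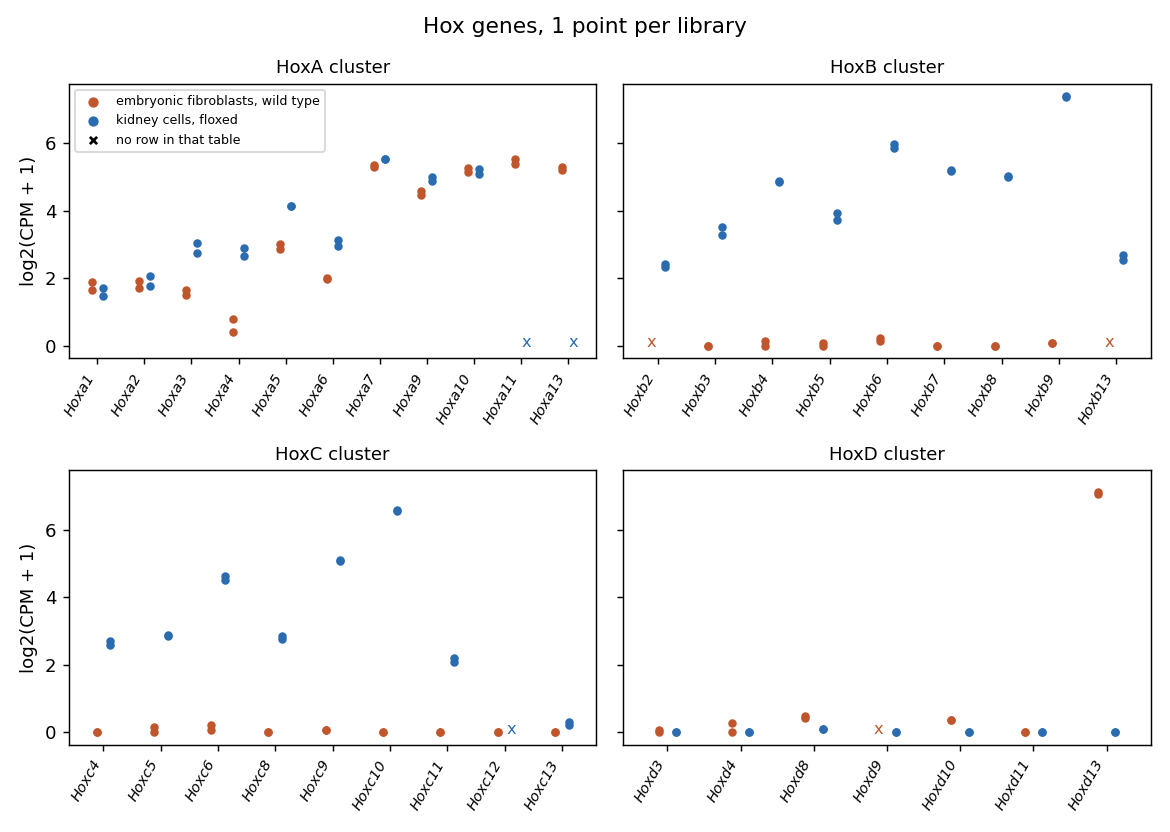
Hox genes by cluster, with 1 point per library as log2(CPM + 1) (orange embryonic fibroblasts, blue floxed kidney cells, x for no row in that table). The 9 joined HoxA genes gave 0 calls, Hoxa11 and Hoxa13 have a row in the embryonic table only, HoxB and HoxC genes are at or near 0 in the embryonic libraries, and Hoxd13 is present in the embryonic libraries alone among those shown.

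The genes that the series targets differed little at baseline. Actb stood at 5794 and 5656 CPM in the embryonic and 5052 and 5049.8 in the kidney libraries (1.13-fold). Actg1 stood at 321 and 320.3 against 464 and 450.4 (1.43-fold higher in kidney cells), and Fermt2, which encodes Kindlin-2, at 295 and 290.4 against 247 and 246 (1.19-fold). The libraries of the lines did not overlap for these 3 genes, as for 10878 of the 12587 joined genes. The gaps were far below the 8-fold rule, and the actin genes are similar enough in sequence that reads may be shared. Fermt3 had means of 0.647 ± 0.0438 (SD, n = 2) and 1.19 ± 0.579 (SD, n = 2) CPM, and Fermt1, with a row in the kidney table only, was listed at 0 in both floxed libraries. Tln1, the talin 1 gene, stood at 556 and 503 against 583 and 561, and Tln2 at 227 and 215 against 56.1 and 54.2 (4.01-fold). The calls among 9 joined actins, kindlins and talins were those of Acta2 and Acta1 (27.8 and 24.8 against 0 and 0.157).

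Sex-linked and a few imprinted genes also separated the wild-type embryonic from the floxed kidney libraries. Xist, the RNA of the inactive X chromosome, stood at 994 and 1068 CPM in the embryonic libraries and had no row in the kidney table. The Y-linked Eif2s3y stood at 0.224 and 0.282 in the embryonic and 108 and 116 in the floxed kidney libraries. Ddx3y (122 and 125) and Uty (86.9 and 80.8) had a row in the kidney table only. In the Kindlin-2 K.O. libraries Ddx3y, Uty and Eif2s3y were listed at 0 in both, as was the imprinted gene Peg3, against 282 and 280.1 in the floxed libraries. Igf2r, an imprinted receptor gene, stood at 461 and 414 in the embryonic and 38.5 and 40.0 in the floxed kidney libraries (11.2-fold). It was the only call among 12 joined imprinted genes, whose median log2 ratio of -0.21 lay near the -0.13 of all joined genes. H2-K1, a class I MHC gene with near-identical relatives, stood at 0.896 and 0.339 against 60.7 and 57.3. It and Ifit1, which was called higher in embryonic fibroblasts (15.7 and 22.4 against 0.321 and 0.940), were the calls among 21 joined interferon and class I MHC genes, whose median log2 ratio was -1.05. Of the cell cycle regulators Cdkn2a, Cdkn2b and Trp53, 0 were called, with Cdkn2a at 94.0 and 90.6 against 217 and 216, Cdkn2b at 18.2 and 17.3 against 18.6 and 19.8 and Trp53 at 90.5 and 82.5 against 90.1 and 95.2.

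Some genes near 0 in embryonic fibroblasts were not kidney genes. Akap12 (chr10:4266380-4359470), a kinase scaffold gene, had the largest log2 ratio in the kidney direction, -9.79, at 0.784 and 1.02 against 1628 and 1732. Ldhb, a lactate dehydrogenase subunit gene of most cells, stood at 0.952 and 1.07 against 174 and 185, Slc38a1, a glutamine transporter gene, at 0.616 and 0.904 against 418 and 410.4, and Eif4g3, a translation initiation factor gene, at 0.224 and 0.904 against 229 and 227. All 4 were also present in the wild-type ESC libraries (Akap12 at 1387 and 958, Ldhb at 127 and 69.4, Slc38a1 at 183 and 204, Eif4g3 at 35.6 and 30.9). By limits set after the values were seen, 15 joined genes had a mean below 2 CPM in embryonic fibroblasts and at least 50 in every floxed kidney and wild-type ESC library. These included Akap12, Ldhb, Slc38a1, Plekha2, Hist1h1a, Celsr1, Mtcl1 and Chmp4c besides the kidney genes Lrp2 and Sall1. By the same limits, 3 genes, Nid1, Ptprf and Tenm3, were near 0 in the kidney cells instead. At least 10 CPM in the ESC libraries was reached by 107 of the 238 genes called higher in kidney cells (45.0%), 53 of the 212 called higher in embryonic fibroblasts (25.0%) and 64.4% of all joined genes. An ESC row was present for 215 of the 238, 170 of the 212 and 12102 of all joined genes. A gene without that row counts in these shares as below 10 CPM, which lowers the embryonic share most.

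Lists of general cell upkeep genes gave 0 calls. Over all joined genes 1.68% and 1.89% were called each way, so lists this short would hold few calls or none. Of 30 joined ribosomal protein genes 0 were called, with a median log2 ratio of -0.11, and of 30 housekeeping genes 0 were called, with a median of 0.09. Another scaling moved the median of all genes from -0.13 to -0.01, a shift about as large as the ribosomal median. Among 26 proliferation genes only Ccnd2 was called (326 and 309.6 against 28.4 and 28.0, 11.3-fold higher in embryonic fibroblasts). Of 22 glycolysis and low-oxygen genes, 2 were called, Ldhb and Pfkp (7.61 and 8.02 against 75.6 and 77.9, 9.83-fold), both higher in kidney cells. The p53 targets Btg2 (3.36 and 3.84 against 84.1 and 85.5, 23.6-fold) and Perp (0.224 and 0.169 against 47.3 and 49.4) were the calls among 23 senescence, p53 and cell cycle inhibitor genes. Of 19 detoxifying enzyme genes, Cyp1b1 and Slc7a11 (6.88 and 7.06 against 91.3 and 84.6, 12.6-fold) were called higher in kidney cells and Akr1c18 in embryonic fibroblasts. Adipocyte, endothelial, macrophage and cartilage lists gave 0 calls. They held 7, 4, 3 and 7 joined genes, too few for a count of 0 to differ from the share over all genes. Of 5 joined neural crest and neuronal genes, Tfap2b was called higher in embryonic fibroblasts. Of 5 joined skeletal muscle genes, Acta1 was called in that direction. The lists were chosen with results of these data known, so their counts are not independent evidence of a direction.

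**Figure D4:**
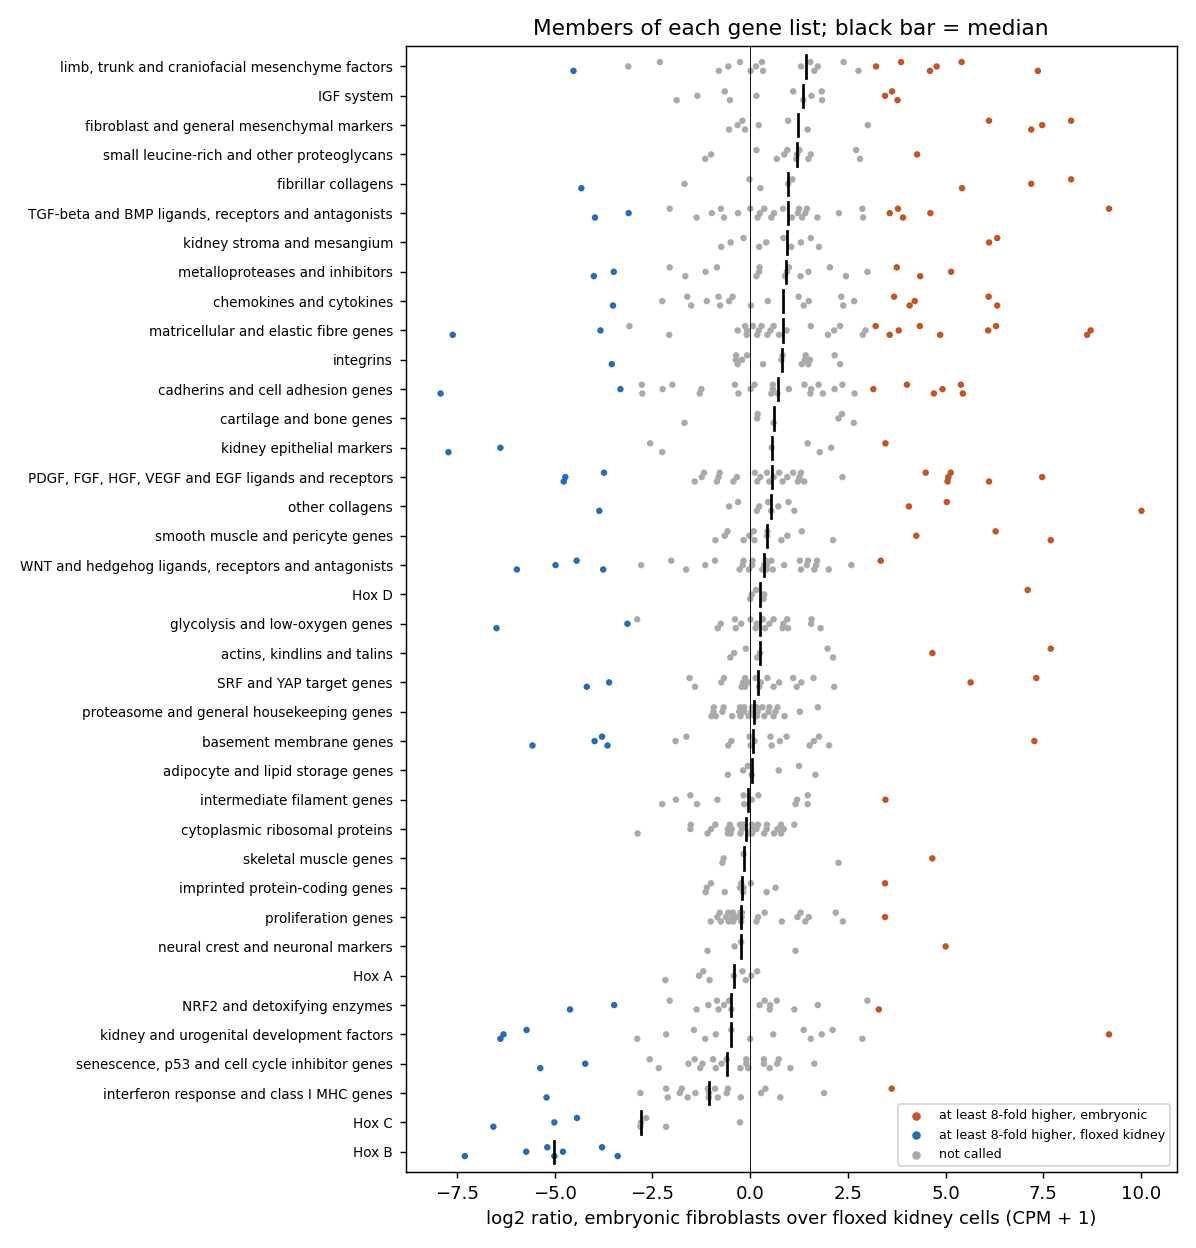
Log2 ratios of embryonic over floxed kidney levels for the members of each gene list with 5 or more joined genes, with a black bar at each list's median. Mesenchyme factors stand at the top (median 1.42), HoxB at the bottom (median -5.01), and ribosomal and housekeeping genes lie near 0 with no coloured points.

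The called genes were spread over the chromosomes. The share of joined genes called higher in embryonic fibroblasts ran from 0.595% on chromosome 15 to 3.66% on the X chromosome (the Y chromosome, with 2 joined genes, left out). The share called higher in kidney cells ran from 0.785% on the X chromosome to 3.57% on chromosome 15, where 3 of the 18 calls were HoxC genes. The median log2 ratio ran from -0.54 on chromosome 10 to 0.30 on the X chromosome, again without the Y chromosome.

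The other genotypes labelled as the same cells were set beside the 2 baselines, although the Kindlin-2 K.O. libraries were at 0 for the Y-linked genes and Peg3 that the floxed libraries held. With all 6 embryonic and 4 kidney libraries, 76 of the 212 embryonic calls and 80 of the 238 kidney calls held. Among the 15 largest differences, 13 embryonic calls held, all but Nid1 and Anxa8, and 8 kidney calls, among them Akap12, Lrp2, Pkhd1, Celsr2, Hoxb9, Plekha2 and Ldhb. Col1a1, Acta2, Prrx1, Grem1, Pdgfra and Pax8 also kept the gap. Hoxc6 did not: it stood at 75.4 and 71.9 in the Actg1 K.O. embryonic fibroblasts, above the floxed kidney cells. In those K.O. cells Slc38a1 (58.4 and 65.7), Eif4g3 (40.5 and 37.0), Hist1h1a (54.1 and 53.8) and Dcn (485 and 454) also lay well above the wild-type embryonic level, and in the Actg1 full locus deletion cells all 7 HoxB genes were at or below 0.0575 CPM. In the Actg1 K.O. cells they ranged from 0.241 to 21.8 CPM, and of the 7 HoxB calls those of Hoxb7 and Hoxb9 held over all libraries. In the Kindlin-2 K.O. cells Krt7 (278 and 289), Epcam (270.1 and 269) and Cdh1 (110.2 and 121) were far above the floxed level, and Loxl2 stood at 9.45 and 9.65. By the same 8-fold rule the K.O. differed from its floxed control in 107 genes upward (0.800%) and 111 downward (0.829%). The Actg1 K.O. differed from wild type in 107 upward (0.756%) and 23 downward (0.163%), and the locus deletion in 2 (0.0141%) and 26 (0.184%). ESCs differed from embryonic fibroblasts by the rule in 522 genes lower in ESCs (4.04%) and 433 higher (3.35%), and from floxed kidney cells in 390 lower (3.07%) and 262 higher (2.06%). These comparisons share the wild-type and floxed libraries with the one described here.

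**Figure D5:**
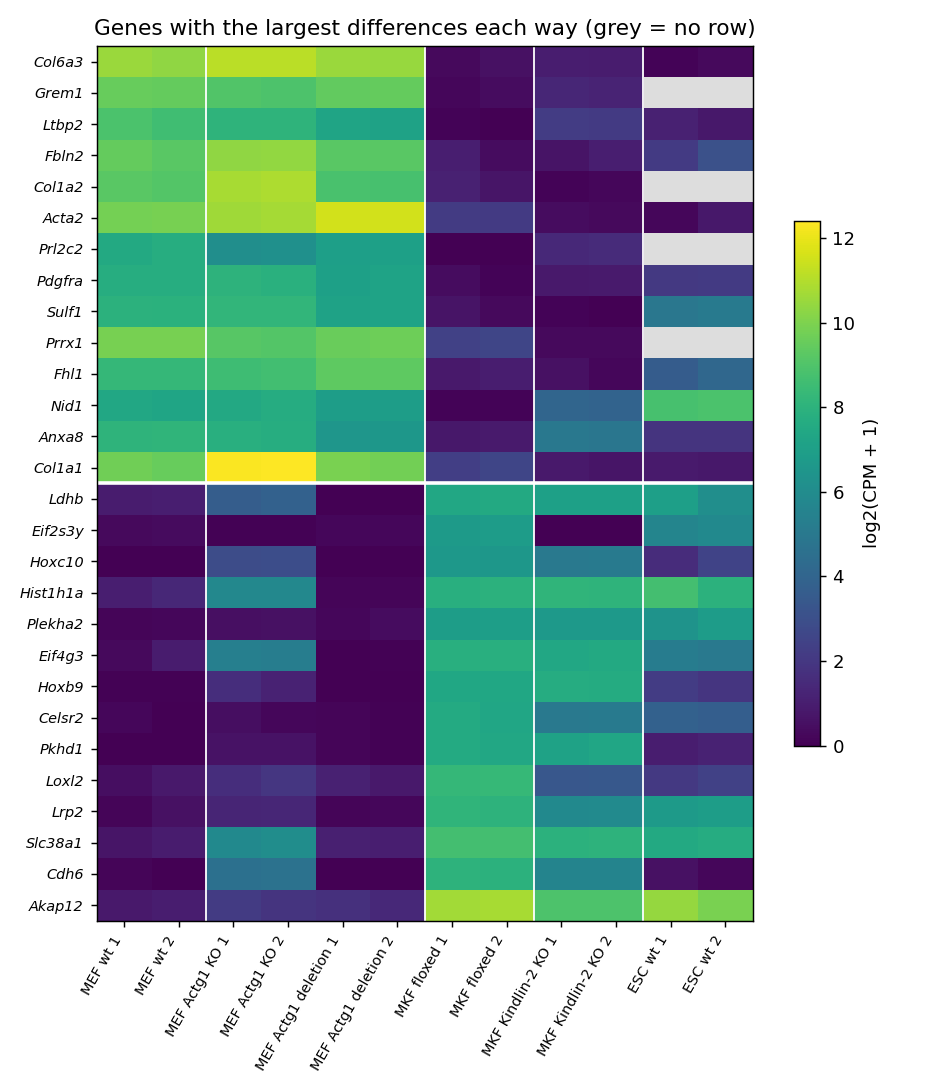
Levels of the 14 genes with the largest differences in each direction in 12 libraries, as colour for log2(CPM + 1) (MEF, embryonic fibroblasts; MKF, kidney cells; ESC, embryonic stem cells; KO, knockout; deletion, full locus deletion; grey, no row). The upper rows are higher in all 6 embryonic than in the 4 kidney libraries, while in the lower rows Eif2s3y is at 0 in the Kindlin-2 knockout libraries and Slc38a1, Eif4g3 and Hist1h1a are higher in the Actg1 knockout than in the other embryonic libraries.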

How the data were processed

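RNA sequencing of total RNA (DNase-treated, SMARTer stranded kit, per the labels' protocols) was analysed in 4 libraries of 16. The values the authors deposited are treated as scores, a normalised unit: each is a whole number that reads as a gene's count scaled by 1 library factor and then rounded, a step not given in the sources used here. The submitters' processing notes name mm10 and GRCm38 as builds, and as tools, with no order, DESeq2 (1.14.1), featureCounts (1.6.0) and the STAR aligner (2.5.3a). Whether counting used strand is not given in the sources used here, so antisense partners and near-identical copies (Prl2c2, Hist1h1a, H2-K1, the actins) are uncertain.

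Each table was limited to protein-coding genes (GENCODE M21 annotation, which placed 12579 of 12587 joined genes), rescaled to CPM and joined by Ensembl gene identifier. Such genes numbered 14148 in the embryonic and 13383 in the kidney data, of which 1561 and 796 were in one table only and stayed out of the calls. Every row held a largest value of at least 4 in the embryonic and 5 in the kidney data, so a missing row is not a measured 0. In the embryonic libraries 1 CPM was worth 17.9 and 17.7 deposited values, in the kidney libraries 12.5 and 12.8. Folds of means are given only where both groups reached 1 CPM. A call needs at least 7 CPM in one line, which 9626 joined genes had. With 2 libraries a group, which may be of 1 culture, both values stand in place of an error.

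Named genes were the 15 called genes with the largest log2 ratio each way, up to 4 called genes per list and direction, the targeted genes, sex-linked and Hox genes, Cdkn2a, Cdkn2b, Trp53, defining markers and the 5 genes of highest level without a row in the other table. Others, such as Epcam, Krt7, Fn1, Col6a1, Zeb1, Dcn in the K.O. cells and the genes near 0 in 1 line, were added after their values were seen. Some genes that the rule names are not reported here. The members and lists were chosen with earlier results of these data known. A planned comparison of promoter features was void, because only 75.0% and 71.4% of the called genes and 79.8% of all joined genes had a promoter in the RefSeq table, under the limit of 80% set for it. The call script was tested on simulated data. Tools were Python 3.11.15, numpy 2.4.6, pandas 2.3.3 and matplotlib 3.10.9. Alternatives were other scalings, added values, fold limits and sets of libraries.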

Additional observations from a re-analysis of the deposited data

How the results depend on the processing

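The 2 counts of genes, 212 higher in embryonic fibroblasts and 238 higher in floxed kidney cells, were recomputed under 14 alternatives. Leaving out 1 library at a time gave 215 to 226 and 247 to 259. The rule sets the lowest library of one line against the highest of the other, so this step could lose no call. Median-of-ratios scaling gave 222 and 222 and quantile scaling 227 and 209, and with both the median log2 ratio moved from -0.13 to -0.01. Adding 3 CPM in place of 1 gave 142 and 133, and adding 0.5 gave 244 and 315. A limit of 4-fold gave 411 and 503 and one of 16-fold 111 and 116. Using all 6 embryonic and 4 kidney libraries gave 76 and 80, which by the rule could come only from the reported calls. With those libraries the log2 ratio changed sign for Adamts9 (0.49), Hoxc6 (0.28), Robo2 (0.33), Krt19 (-1.51) and Sema3c (-0.39), and these 5 were the reversals among 1540 values for 140 named genes, of which 696 moved by more than 1 SD. The cause was not tested. No paired analysis was possible because the libraries compared are in tables normalised apart and the calls come from no test. Levels below 1 CPM rest on fewer than 18 deposited values, which limits the ratios of genes near 0.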
